A study of Homo sapiens with 30 samples.

Results

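The genes described here are 33 genes of sterol and fatty acid synthesis that are transcribed under the sterol regulatory element-binding proteins (SREBPs), or that control those factors. They were chosen by name as genes of this pathway, but with earlier results of these data known, so their counts are not an unselected sample. Each was found by its Ensembl gene ID among the 60675 rows of the deposited expected-count table. By role, 18 encode enzymes from acetyl-CoA to cholesterol, 8 encode enzymes that make, elongate or desaturate fatty acids, 5 encode the SREBPs and their regulators, and 2 encode sterol-binding or sterol-carrying proteins. All 33 passed the filter on low counts, so all were tested. The cells were HT29, an established human colorectal adenocarcinoma line, kept in DMEM with fetal bovine serum. They were treated for 24 h with 70% ethanol extracts of the herbal formulas Banhasasim, Sayeok, Bojungikgi or Yijung at 500, 100 or 20 µg/mL, or with the DMSO vehicle. The vehicle and each dose of Sayeok and of Bojungikgi had 3 libraries, each dose of Banhasasim had 2 (replicates 2 and 3) and each dose of Yijung had 1 (replicate 3), which makes 30 libraries in 13 groups. The vehicle is labelled 0.1% DMSO, the series text gives 2%, and the labels of the extract samples give no solvent. All titles say BatchE, but the sample codes have the same prefix for Banhasasim and Yijung and another for Sayeok and Bojungikgi. The vehicle has a different prefix again. What the prefixes stand for is not stated, and in comparisons across them treatment and prefix cannot be told apart. An extract is a mixture whose composition the labels do not give, all libraries come from 1 cell line, and the labels do not state whether replicates came from separate cultures. The p-values therefore measure the spread between these libraries, which may be technical.

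SREBP2, encoded by SREBF2, mainly drives cholesterol synthesis genes, and SREBP1, encoded by SREBF1, mainly drives fatty acid synthesis genes. Both are held in the endoplasmic reticulum membrane with SCAP, a sterol sensor that escorts them to the Golgi apparatus, where proteases release the part that enters the nucleus. When sterols are plentiful, SCAP is retained by INSIG1 or INSIG2 and transcription of the targets falls. INSIG1 is itself an SREBP target, which closes a feedback loop. Intestinal epithelial cells make cholesterol and fatty acids and also take them up from the gut lumen and from lipoproteins. Synthesis runs from acetyl-CoA through mevalonate to isoprenoid units, squalene, lanosterol and finally cholesterol, while the fatty acid branch takes the same acetyl-CoA to saturated and then unsaturated acids.

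Levels are given as CPM, a gene's counts scaled to a fixed library total, with the totals adjusted by the trimmed mean of M-values (TMM). Total counts per library, rounded, ran from 36273842 to 71625568, and 3 counts correspond to 0.0419 to 0.0827 CPM, which covers counting error only. The 33 genes together took 0.641% to 0.888% of the counts of a library. As chi-square per gene, 3 libraries were each at over 20 from both others of their group, a limit set after seeing the values, while the remaining pairs within groups of 3 were at 5.02 to 14.62. Vehicle replicate 1 stood at 29.09 and 34.73 from the other two, which were at 7.91 from each other. For Bojungikgi 500 µg/mL replicate 2 the values were 37.12 and 44.03 against 5.47, and for Sayeok 100 µg/mL replicate 2 they were 34.0 and 21.31 against 7.8. The 2 Banhasasim 500 µg/mL libraries differed by 45.07, and in them mitochondrial ribosomal RNA took 12.86% and 9.41% of the counts, against 0.91% to 1.91% in the other libraries. Ribosomal protein genes took 6.91% of the counts in vehicle replicate 1 (5.89% and 5.56% in the others) and 3.78% in Bojungikgi 500 µg/mL replicate 2 (5.12% and 5.31%). Results are therefore given with and without these libraries where a count or a call depends on them. All 10 colon epithelial markers, EPCAM, CDH1 and KRT20 among them, had a mean of at least 1 CPM, as did 1 of 6 fibroblast markers (COL1A1), 1 of 4 endothelial markers (PECAM1), 3 of 6 leukocyte markers (CD14, LYZ and ITGAM) and none of the 4 hepatocyte or 3 adipocyte markers. Over the 30 libraries the fibroblast sum ran from 1.69 to 2.92 CPM, the endothelial sum from 1.302 to 2.25 CPM and the leukocyte sum from 1581 to 2025 CPM. PTPRC and CD3E, which define leukocytes, were below a mean of 1 CPM, and the endothelial KDR was at 0 in all libraries. The part of these values in the results was not tested. In bulk RNA, fewer cells with a transcript and less of it per cell cannot be told apart.

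Promoter windows from RefSeq (GRCh38.p14, 250 bases before to 50 after a start site) were present for 29 of the 33 genes, all but ACAT2, FDFT1, SQLE and FASN. SREBPs bind sterol regulatory elements and work with NF-Y, which binds CCAAT, and with Sp1, which binds GC boxes. Each motif was searched on both strands. The letters CCAAT were found in windows of 22 of the 29 genes (75.9%) and of 39.72% of all 27305 genes with a window. The GC box GGGCGG was found for 28 of 29 (96.6%) against 48.3%. The element in its strict form, TCACNCCAC, was found for 1 of 29 (3.4%, SREBF2) against 1.39%. The shares of all genes include genes that did not pass the filter on low counts, which all 33 passed. A gene with more than 1 window was counted if any of them matched. No background of expressed genes was made, so the higher shares are not shown to be particular to SREBP targets. These are matches of letters and no evidence of binding, and a window without a match says only that these letters are not in it. The upstream stretches of 5 genes whose level was lower at the highest dose of 1 or more extracts are printed here to show these letters in place, and SREBF2 is added for its strict element. Capitals mark CCAAT or its reverse complement ATTGG and GGGCGG or its reverse complement CCGCCC. HMGCS1 is shown at chr5:43313513-43313662, minus strand, bases -250 to -101 from the start. INSIG1 is shown at chr7:155297628-155297775, plus strand, bases -250 to -103. LSS is shown at chr21:46228825-46229024, minus strand, bases -250 to -51. STARD4 is shown at chr5:111512591-111512785, minus strand, bases -250 to -56. ACSS2 is shown at chr20:34874739-34874941, plus strand, bases -250 to -48, a stretch that lies inside the wider span which GENCODE gives this gene. The SREBF2 site lies at chr22:41832962-41832990 on the plus strand, and there the capitals mark TCACNCCAC, which begins at base -133.
HMGCS1: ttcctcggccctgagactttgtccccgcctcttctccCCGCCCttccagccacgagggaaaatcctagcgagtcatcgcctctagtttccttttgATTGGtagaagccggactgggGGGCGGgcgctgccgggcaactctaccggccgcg
INSIG1: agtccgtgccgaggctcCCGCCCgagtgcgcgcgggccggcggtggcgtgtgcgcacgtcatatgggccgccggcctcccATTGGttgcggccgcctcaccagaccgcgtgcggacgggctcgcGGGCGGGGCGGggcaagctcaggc
LSS: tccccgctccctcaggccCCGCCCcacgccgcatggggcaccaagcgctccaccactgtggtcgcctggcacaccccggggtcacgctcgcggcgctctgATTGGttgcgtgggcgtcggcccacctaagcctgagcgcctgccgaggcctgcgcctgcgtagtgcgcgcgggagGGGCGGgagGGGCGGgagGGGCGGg
STARD4: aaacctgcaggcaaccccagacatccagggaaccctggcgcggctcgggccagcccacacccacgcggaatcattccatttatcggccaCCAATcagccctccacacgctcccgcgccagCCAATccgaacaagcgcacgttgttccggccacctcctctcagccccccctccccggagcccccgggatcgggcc
ACSS2: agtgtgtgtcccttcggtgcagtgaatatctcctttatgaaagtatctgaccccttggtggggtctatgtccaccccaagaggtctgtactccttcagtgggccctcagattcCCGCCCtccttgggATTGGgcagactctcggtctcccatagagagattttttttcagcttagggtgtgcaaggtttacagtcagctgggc
SREBF2: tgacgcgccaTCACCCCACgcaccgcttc

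Levels per length, as the mean CPM over the 30 libraries per kilobase of merged exons, ordered the genes over a wide range. SCD, the stearoyl-CoA desaturase, was highest at 378.5 CPM per kb, followed by SQLE, the squalene epoxidase, at 191, FASN, the fatty acid synthase, at 110.0, and DHCR7, the last reductase before cholesterol, at 104. The lowest were the desaturases FADS2 at 0.0249 and FADS1 at 0.574 CPM per kb, and HSD17B7 at 3.79 and ACSS2 at 4.39 came next. FADS2 was at 0.109 to 0.465 CPM, where 3 counts are up to 0.0827 CPM, so it was tested but its changes rest on few counts. For the other 32 genes, the highest of the 30 libraries was 1.129 times (TMEM97) to 2.322 times (PMVK) the lowest, so the spread over the study was small. CYP51A1, the lanosterol demethylase, shares 79.4% of its exon length with the read-through gene model AC000120.2 on the same strand, and its values are uncertain for that reason. ACAT2 shares 33.9% with SOD2-OT1, FDPS 18.6% with RUSC1-AS1, HMGCS1 15.0% with AC114947.2, IDI1 14.8% with IDI2-AS1 and TMEM97 11.9% with IFT20, all on the opposite strand. The strand setting of the counting is not given in the sources used here. HSD17B7 and FDPS also have pseudogene copies between which expected counts can be split.

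The first question was whether the genes changed between the lowest and the highest dose of an extract. At 500 against 20 µg/mL, 10 of the 33 genes fell with Banhasasim, 3 with Sayeok and 9 with Bojungikgi, and none rose. Calls rest on edgeR's quasi-likelihood test over 18783 genes, at an adjusted p (Benjamini-Hochberg) under 0.05. Among all genes tested, 4.00% were called lower with Banhasasim, 2.03% with Sayeok and 1.16% with Bojungikgi, and 3.82%, 1.14% and 0.602% were called higher. These shares include genes at low levels. Fitted on the 13275 genes with a mean of at least 1 CPM, 832, 450 and 269 were called lower and 715, 221 and 115 higher. That fit called 10, 4 and 9 of the 33 genes, and FADS2, below 1 CPM, was not in it. Other shares of all genes called are over the 18783 genes unless stated. HMGCS1, LSS and ACSS2 fell in each of the 3 extracts, which share no library in this comparison. For the 0 genes called higher, the counts at an unadjusted p under 0.05 were 0, 1 (INSIG2) and 0, and DESeq2 called 0 in each. The median log2 fold change of the 33 was -0.146 with Banhasasim, -0.059 with Sayeok and -0.133 with Bojungikgi, and that of all genes was 0.005, 0.004 and 0.001. All libraries at 500 lay below all at 20 µg/mL for 24, 7 and 17 of the 33, where 25.2%, 10.9% and 9.04% of all genes did so. The Banhasasim count was 4 without its 500 µg/mL replicate 2, 5 without its 20 µg/mL replicate 3, and 10 with mitochondrial genes left out. With libraries scaled by total counts only, which moved the median of all genes to -0.129, it was 23. The Bojungikgi count was 4 without its 20 µg/mL replicate 1, 6 without its 500 µg/mL replicate 2, and 2 when only its own 2 groups were fitted. Without the 3 libraries that stand apart, the counts were 16, 5 and 6.

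**Figure D1:**
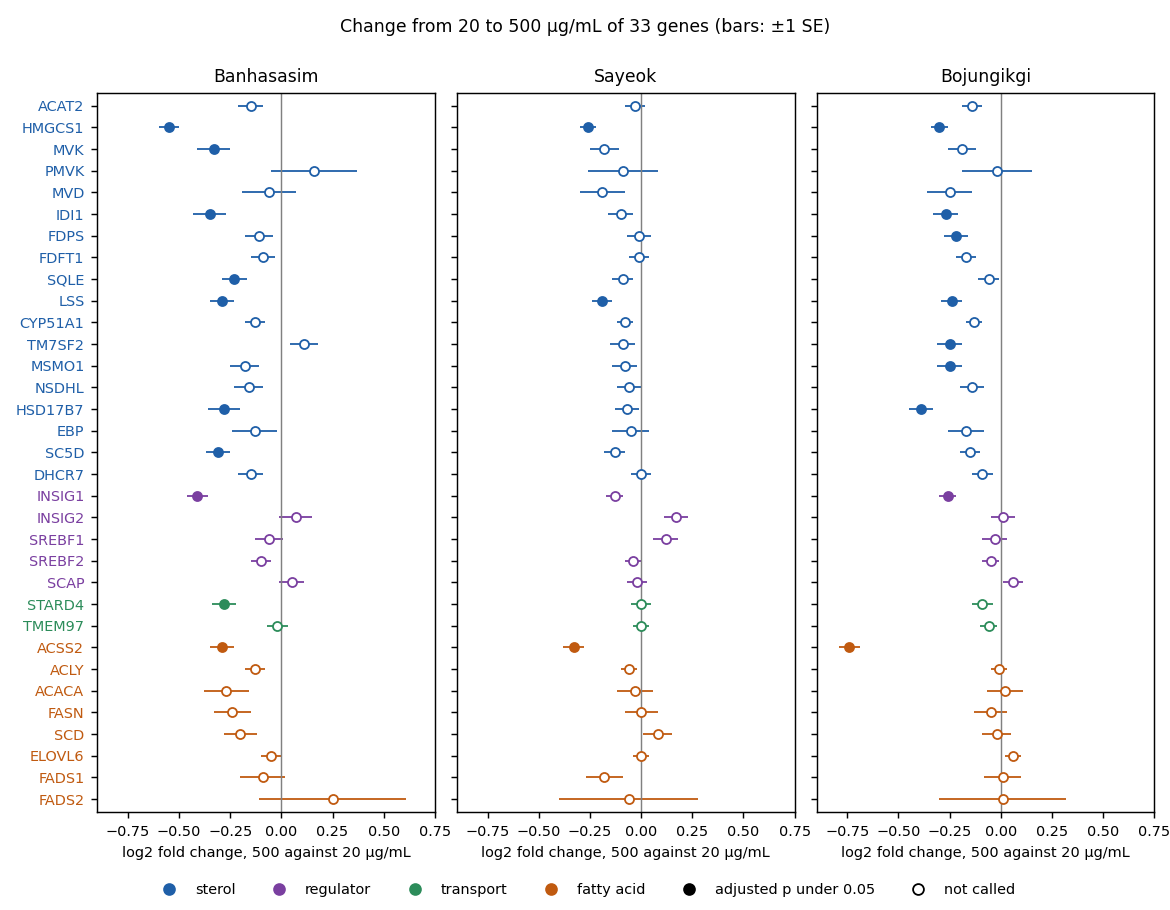
Log2 fold change between 500 and 20 µg/mL (x axis) for each of the 33 genes in pathway order (y axis) with Banhasasim, Sayeok and Bojungikgi, coloured by role, with bars of 1 standard error and filled points for an adjusted p under 0.05. Filled points all lie below 0: 10, 3 and 9 genes, with HMGCS1 at -0.55, -0.26 and -0.30 and ACSS2 at -0.29, -0.33 and -0.74.

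The first steps join acetyl units into mevalonate and activate it. ACAT2 condenses 2 acetyl-CoA and HMGCS1 adds the third to make HMG-CoA. In HMGCS1 the vehicle libraries read 239, 258 and 273 CPM. With Banhasasim it read 265 and 271 CPM at 20, 235 and 241.5 at 100 and 181 and 185.5 at 500 µg/mL. The Banhasasim libraries separated completely by dose, and both at 500 µg/mL were below all other libraries of the study. Sayeok gave 276, 250.1 and 275 CPM at 20, 238, 245.5 and 247 at 100 and 222, 225.5 and 223 at 500 µg/mL, and Bojungikgi gave 262, 267 and 274 CPM at 20, 262, 248 and 255 at 100 and 218, 218 and 215 at 500 µg/mL. In both, all libraries at 500 µg/mL were below all at 20 and at 100 µg/mL. The log2 fold change from 20 to 500 µg/mL was -0.55 ± 0.05 (adjusted p = 9.43e-08) with Banhasasim, -0.26 ± 0.04 (adjusted p = 0.000799) with Sayeok and -0.30 ± 0.04 (adjusted p = 0.000191) with Bojungikgi, given throughout with its standard error. These are falls of 31.5%, 16.2% and 18.8%, and each remained called under every alternative setting run.

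MVK phosphorylates mevalonate. Its vehicle libraries read 57.9, 51.3 and 48.2 CPM. Banhasasim gave 45.8 and 45.8 CPM at 20, 42.6 and 40.1 at 100 and 37.4 and 35.6 at 500 µg/mL, with no overlap between doses. Sayeok gave 48.2, 46.97 and 41.1 CPM at 20, 47.2, 46.2 and 42.9 at 100 and 41.7, 37.9 and 40.8 at 500 µg/mL. Bojungikgi gave 45.5, 43.3 and 42.3 CPM at 20, 43.4, 42.9 and 43.2 at 100 and 41.9, 34.6 and 38.55 at 500 µg/mL. MVK fell with Banhasasim (-0.33 ± 0.08, adjusted p = 0.0146), and the Sayeok and Bojungikgi changes of -0.18 ± 0.07 and -0.19 ± 0.07 did not pass (adjusted p = 0.192 and 0.202). The Banhasasim call was lost when any 1 of the 4 libraries of its 2 groups was left out. ACAT2, PMVK and MVD, the other enzymes of this stretch, were not called between 500 and 20 µg/mL in any extract. Their log2 changes were -0.15, -0.03 and -0.14 for ACAT2, 0.16, -0.09 and -0.02 for PMVK and -0.06, -0.19 and -0.25 for MVD, with Banhasasim, Sayeok and Bojungikgi in that order. PMVK and MVD had the widest standard errors of the sterol enzymes, up to 0.21 and 0.13.

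IDI1 isomerises the first isoprenoid unit. It read 178, 171 and 177 CPM in the vehicle libraries. Under Banhasasim the values were 173 and 178 CPM at 20, 162 and 168 at 100 and 143 and 133.5 at 500 µg/mL, with no overlap between doses. Under Sayeok they were 186, 159 and 179 CPM at 20, 172.5, 156 and 161 at 100 and 161, 169 and 157 at 500 µg/mL. Bojungikgi brought 176, 171 and 179 CPM at 20, 172, 169.6 and 165 at 100 and 154, 126 and 156 at 500 µg/mL, where replicate 2 at 500 µg/mL was the lowest of all 30 libraries. IDI1 fell with Banhasasim (-0.35 ± 0.08, adjusted p = 0.00405) and with Bojungikgi (-0.27 ± 0.06, adjusted p = 0.02), and with Sayeok it was at -0.10 ± 0.06 (adjusted p = 0.5). The Banhasasim call of IDI1 was lost without the 20 µg/mL replicate 3. The Bojungikgi calls of IDI1, FDPS and MSMO1 were each lost without the 500 µg/mL replicate 2, and without any 1 of the 20 µg/mL libraries. FDPS joins isoprenoid units into farnesyl pyrophosphate, the branch point to sterols, dolichol and prenylated proteins. Its vehicle libraries read 210.1, 203 and 191 CPM, and all 3 lay above all 27 extract libraries. With Banhasasim it read 167 and 175 CPM at 20, 169 and 162 at 100 and 166.5 and 151 at 500 µg/mL. Sayeok gave 177, 168 and 174 CPM at 20, 170.4, 160.0 and 160.2 at 100 and 176, 173 and 166.5 at 500 µg/mL, with the doses overlapping. Bojungikgi gave 173, 169 and 170.5 CPM at 20, 171, 179 and 164 at 100 and 154, 131 and 155 at 500 µg/mL. FDPS fell with the dose of Bojungikgi (-0.22 ± 0.06, adjusted p = 0.0356), while the changes with Banhasasim (-0.11 ± 0.07) and Sayeok (-0.01 ± 0.06) did not pass. FDFT1, the squalene synthase, was not called, at -0.09, -0.01 and -0.17.

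SQLE makes squalene epoxide and LSS folds it into lanosterol, the first sterol of the pathway. For SQLE the vehicle libraries read 835, 832 and 868 CPM. Banhasasim gave 820.4 and 855 CPM at 20, 791.5 and 794 at 100 and 716.5 and 716 at 500 µg/mL, each dose below the one before. Sayeok gave 864.5, 871 and 891 CPM at 20, 814, 803 and 830.3 at 100 and 812, 817 and 835 at 500 µg/mL. The Bojungikgi libraries read 873, 814 and 848 CPM at 20, 855, 792 and 849.8 at 100 and 804, 870.2 and 758 at 500 µg/mL, with the 3 doses overlapping. SQLE fell with Banhasasim alone among the 3 tests (-0.23 ± 0.06, adjusted p = 0.00985), beside -0.09 ± 0.05 with Sayeok and -0.06 ± 0.05 with Bojungikgi. Whether its dose change differed between extracts was tested and did not pass (adjusted p = 0.613 and 0.267 against Sayeok and Bojungikgi). LSS read 114, 125 and 124 CPM with vehicle. Banhasasim libraries read 118 and 120.5 CPM at 20, 112.5 and 109 at 100 and 96.03 and 99.3 at 500 µg/mL, where each dose lay below the last. Sayeok libraries read 128.5, 127 and 115 CPM at 20, 122, 129 and 121 at 100 and 114.5, 101 and 110.3 at 500 µg/mL, with all at 500 µg/mL below all at 20 and at 100. Bojungikgi libraries read 126, 117 and 115 CPM at 20, 116, 113 and 109 at 100 and 102, 98.4 and 101 at 500 µg/mL. LSS fell in all 3 extracts, with log2 changes of -0.29 ± 0.06 (adjusted p = 0.00353), -0.19 ± 0.05 (adjusted p = 0.0448) and -0.24 ± 0.05 (adjusted p = 0.00867) for Banhasasim, Sayeok and Bojungikgi. The Sayeok value is close to the threshold, and the call was lost without 20 µg/mL replicate 1 or 2 and without 500 µg/mL replicate 2 or 3. The Banhasasim call of LSS was lost without 500 µg/mL replicate 2, the Bojungikgi call without 20 µg/mL replicate 1, and the SQLE call without Banhasasim 500 µg/mL replicate 2 or 20 µg/mL replicate 3.

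The last enzymes turn lanosterol into cholesterol. MSMO1 and NSDHL with HSD17B7 remove the methyl groups at carbon 4, EBP moves a double bond, SC5D inserts one and DHCR7 removes one. MSMO1 read 119, 110.2 and 114 CPM with vehicle, above all 27 extract libraries. With Banhasasim it read 91.4 and 102 CPM at 20, 89.45 and 92.6 at 100 and 87.7 and 83.2 at 500 µg/mL. Sayeok gave 104, 92.95 and 97.9 CPM at 20, 95.6, 81.7 and 92.3 at 100 and 89.5, 93.4 and 95.95 at 500 µg/mL, and Bojungikgi gave 99.1, 95.4 and 101 CPM at 20, 92.8, 92.4 and 96.4 at 100 and 87.5, 74.8 and 86.6 at 500 µg/mL. Its fall with dose passed for Bojungikgi only (-0.25 ± 0.06, adjusted p = 0.0309), against -0.18 ± 0.07 with Banhasasim and -0.08 ± 0.06 with Sayeok, and the differences between these changes did not pass. HSD17B7, a keto reductase, read 19.8, 19.75 and 18.9 CPM with vehicle. Banhasasim brought 18.9 and 19.6 CPM at 20, 16.9 and 18.2 at 100 and 16.3 and 15.5 at 500 µg/mL, and the doses did not overlap. Sayeok brought 18.9, 18.2 and 19.03 CPM at 20, 18.9, 18.6 and 17.2 at 100 and 18.55, 17.8 and 17 at 500 µg/mL. Bojungikgi brought 19.3, 19.3 and 19.6 CPM at 20, 17.8, 19.8 and 18.3 at 100 and 15.9, 13.2 and 15.3 at 500 µg/mL. HSD17B7 fell with Banhasasim (-0.28 ± 0.08, adjusted p = 0.0206) and with Bojungikgi (-0.39 ± 0.06, adjusted p = 0.000443), and the groups at 20 and 500 µg/mL did not overlap in either. Its Banhasasim call was lost when any 1 library of the 2 groups was left out. SC5D, the desaturase, read 119, 121 and 130.5 CPM with vehicle, lower than all libraries at 20 µg/mL. Banhasasim libraries held 141 and 146 CPM at 20, 135 and 136 at 100 and 112 and 119.8 at 500 µg/mL, with the lowest dose highest and no overlap. Sayeok libraries held 142, 143 and 153 CPM at 20, 137, 131.5 and 139.7 at 100 and 127, 136 and 138 at 500 µg/mL. Bojungikgi libraries held 140.2, 141 and 142 CPM at 20, 132, 129.8 and 147 at 100 and 130.3, 121 and 130.4 at 500 µg/mL. SC5D fell with Banhasasim (-0.31 ± 0.06, adjusted p = 0.00155), while -0.13 ± 0.05 with Sayeok and -0.15 ± 0.05 with Bojungikgi did not pass. The SC5D call was lost without Banhasasim 500 µg/mL replicate 2.

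TM7SF2, a sterol reductase that acts next to the lanosterol demethylase, was called with Bojungikgi and not with Banhasasim or Sayeok. Its libraries lay at 38.8 to 40.6 CPM at 20 and 41.9 to 43.6 CPM at 500 µg/mL of Banhasasim, with no overlap and the higher values at 500 (0.11 ± 0.07, not called, and -0.03 when scaled by total counts only). With Bojungikgi they lay at 39.9 to 45.03 and 33.7 to 35.95 CPM, and TM7SF2 fell (-0.25 ± 0.06, adjusted p = 0.019), a call lost without 20 µg/mL replicate 1 or 500 µg/mL replicate 3. With Sayeok it was at -0.09 ± 0.06 (adjusted p = 0.54). CYP51A1, NSDHL, EBP and DHCR7 were not called between 500 and 20 µg/mL in any extract, with log2 changes from -0.16 (NSDHL, Banhasasim) to 0.00 (DHCR7, Sayeok) in the Banhasasim and Sayeok comparisons and from -0.17 (EBP) to -0.09 (DHCR7) with Bojungikgi.

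Of the 5 regulators, INSIG1 was the one called. INSIG1 read 194, 187 and 185 CPM with vehicle. Banhasasim libraries read 176 and 187 CPM at 20, 166.5 and 167 at 100 and 133 and 139.5 at 500 µg/mL, a complete separation of the 3 doses. Sayeok libraries read 190.4, 186 and 181 CPM at 20, 183, 176 and 185 at 100 and 165.5, 173 and 169.9 at 500 µg/mL. Bojungikgi libraries read 178, 187 and 189 CPM at 20, 171, 166 and 181 at 100 and 157, 155 and 151.5 at 500 µg/mL. INSIG1 fell with Banhasasim (-0.41 ± 0.05, adjusted p = 2e-06) and with Bojungikgi (-0.26 ± 0.04, adjusted p = 0.000443), and with Sayeok it was at -0.13 ± 0.04 (adjusted p = 0.0784). Without the 3 libraries that stand apart, INSIG1 was also called with Sayeok. The transcripts of the factors themselves were not called. SREBF2 lay between 279 and 320 CPM over all 30 libraries, with log2 changes of -0.10, -0.04 and -0.05, SREBF1 had -0.06, 0.12 and -0.03, and SCAP had 0.05, -0.02 and 0.06. INSIG2, the second retention protein, was at 0.07, 0.17 ± 0.06 (adjusted p = 0.158) and 0.01. Messenger RNA does not show how much SREBP protein was cleaved.

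STARD4 carries cholesterol between membranes, and TMEM97 is a sterol-binding protein of the endoplasmic reticulum and lysosome. STARD4 read 63.45, 69.5 and 72.9 CPM with vehicle. Banhasasim gave 74.97 and 79.8 CPM at 20, 70.4 and 74.5 at 100 and 62.1 and 65.2 at 500 µg/mL, and again no 2 doses overlapped. Sayeok gave 82.5, 74.4 and 79.9 CPM at 20, 76.3, 75.7 and 75.5 at 100 and 76.6, 78.97 and 80.8 at 500 µg/mL. Bojungikgi gave 80.1, 79.7 and 75.8 CPM at 20, 78.3, 72.8 and 77.4 at 100 and 74.4, 74.9 and 72.6 at 500 µg/mL. STARD4 fell with Banhasasim (-0.28 ± 0.06, adjusted p = 0.00288), against 0.00 ± 0.05 with Sayeok and -0.09 ± 0.05 with Bojungikgi. The differences of these changes were -0.28 ± 0.08 (adjusted p = 0.092) and -0.20 ± 0.08 (adjusted p = 0.222), which did not pass. The STARD4 call was lost without Banhasasim 500 µg/mL replicate 2 or 20 µg/mL replicate 3. TMEM97 stayed between 146 and 165 CPM in all libraries and was called nowhere.

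In the fatty acid branch, ACSS2 was the one gene called between 500 and 20 µg/mL, and it was called in each extract. ACSS2 makes acetyl-CoA from free acetate in the cytosol and nucleus. The vehicle libraries read 21.9, 23.2 and 22.5 CPM. Banhasasim libraries read 27.4 and 26.04 CPM at 20, 23.9 and 23.3 at 100 and 22.1 and 21.6 at 500 µg/mL, with the doses apart. Sayeok libraries read 27.9, 27.9 and 28.1 CPM at 20, 24.6, 24.4 and 25.3 at 100 and 22.4, 23.5 and 20.7 at 500 µg/mL. Bojungikgi libraries read 28.4, 27.4 and 27.8 CPM at 20, 22.4, 23.3 and 23.2 at 100 and 16.7, 16.6 and 16.8 at 500 µg/mL, stepwise and with no overlap between doses. The level at 20 µg/mL was above all vehicle libraries in each extract, and at 500 µg/mL of Bojungikgi it was below all of them. ACSS2 fell with log2 changes of -0.29 ± 0.06 (adjusted p = 0.00101), -0.33 ± 0.05 (adjusted p = 3.81e-05) and -0.74 ± 0.05 (adjusted p = 1.57e-10), the last a fall of 40.2%. The 3 calls held under every alternative run.

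The other 7 fatty acid genes were not called. Their log2 changes follow in the order Banhasasim, Sayeok and Bojungikgi. ACLY, which makes acetyl-CoA from citrate, had -0.13, -0.06 and -0.01. ACACA, the acetyl-CoA carboxylase that makes malonyl-CoA, had -0.27 ± 0.11, -0.03 ± 0.09 and 0.02 ± 0.09. FASN had -0.24 ± 0.09, 0.00 ± 0.08 and -0.05 ± 0.08, and SCD had -0.20 ± 0.08, 0.08 ± 0.07 and -0.02 ± 0.07. The Banhasasim values of these 4 genes were all below 0 at an unadjusted p under 0.05, and without the 3 libraries that stand apart ACLY, ACACA and SCD were called there. ELOVL6, the elongase, had -0.05, 0.00 and 0.06. FADS1 had -0.09, -0.18 and 0.01. FADS2, at a mean of 0.2745 CPM, had 0.25, -0.06 and 0.01 and was the only fatty acid gene above 0 with Banhasasim.

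**Figure D2:**
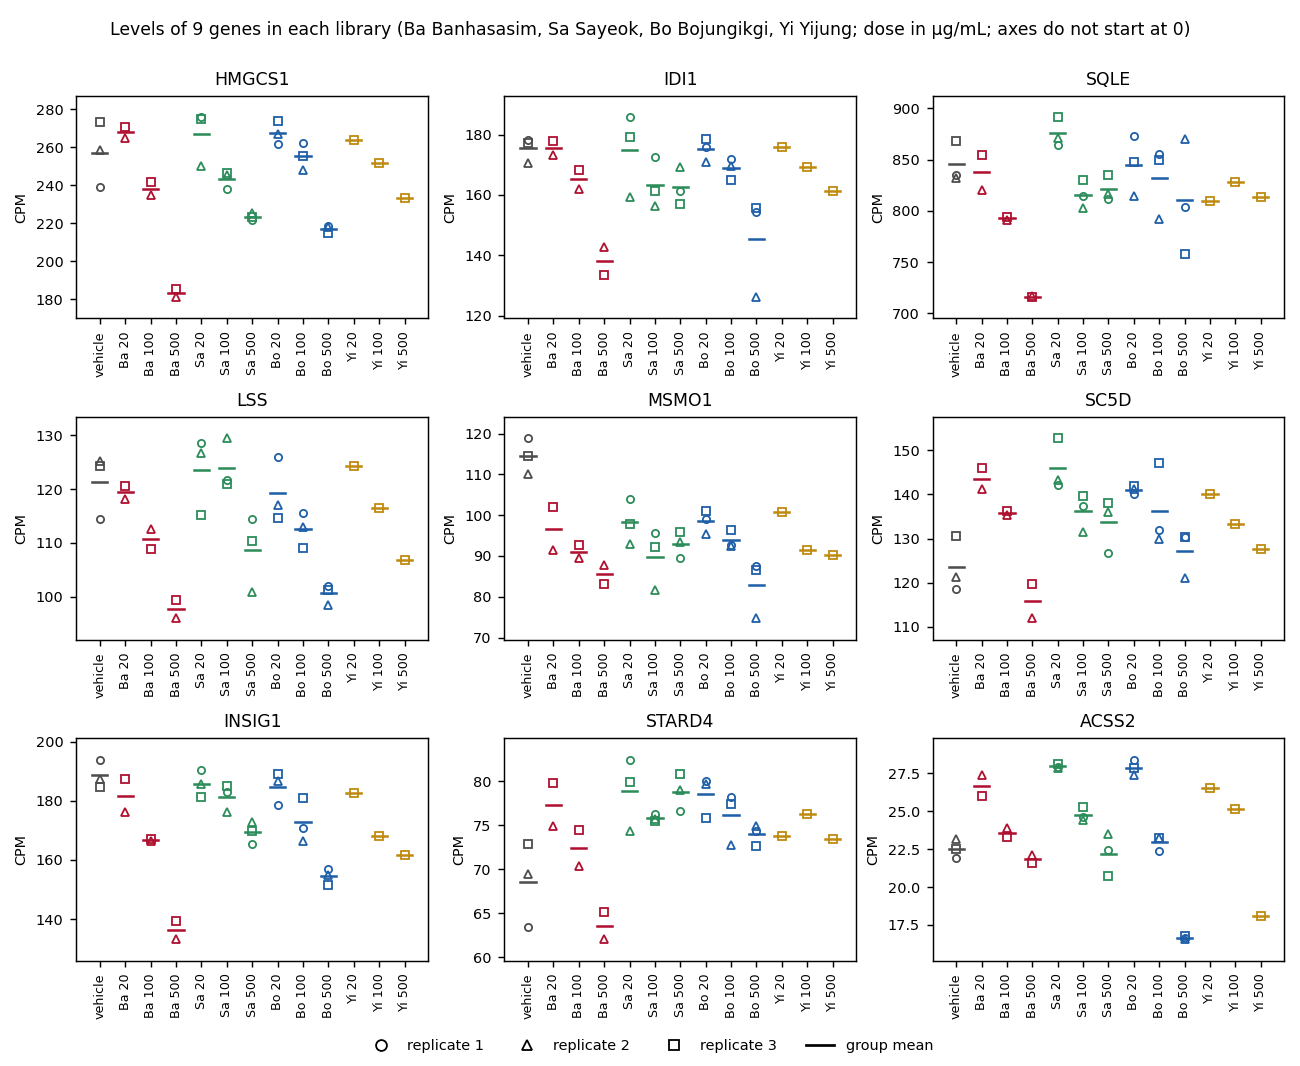
Level in CPM (y axis, not starting at 0) of 9 genes in every library by group (x axis), with a symbol for the replicate number and a line for the group mean. Mean levels of HMGCS1, INSIG1 and ACSS2 step down with dose, HMGCS1 to 181 and 185.5 CPM at 500 µg/mL of Banhasasim, while MSMO1 is below vehicle at every dose and ACSS2 at 20 µg/mL is above it.

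Set side by side, 7 of 18 sterol enzymes fell with Banhasasim, 2 of 18 with Sayeok and 7 of 18 with Bojungikgi, and 1 of 8 fatty acid genes fell in each, always ACSS2. The median log2 changes of the sterol enzymes were -0.157, -0.083 and -0.177, and those of the fatty acid genes were -0.165, -0.041 and -0.002, beside medians near 0 over all genes. With Banhasasim the 2 branches thus had like medians, and with Bojungikgi the fatty acid median was near 0. No test of the 2 branches against each other was made, since the genes were chosen with earlier results known.

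As summed levels, the 18 sterol enzymes took 3286 ± 42.3 CPM (SD, n = 3) with vehicle. With Banhasasim the sums were 3095 and 3203 CPM at 20, 2974 and 2986 at 100, and 2706 and 2738 at 500 µg/mL. Sayeok had 3228 ± 51.1, 3054 ± 69.6 and 3044 ± 14.5 CPM, and Bojungikgi had 3151 ± 60.5, 3087 ± 47.1 and 2843 ± 63.1 CPM (SD, n = 3 each) at 20, 100 and 500 µg/mL. The sum is weighted toward SQLE, the enzyme with the most counts among the 18. The 8 fatty acid genes took 3756 ± 320 CPM with vehicle, where replicate 1 read 3387 CPM. They took 4228 and 4238 CPM at 20 and 3506 and 3824 CPM at 500 µg/mL of Banhasasim, 4310 ± 134 and 4399 ± 167 CPM with Sayeok and 4218 ± 112 and 4153 ± 400 CPM with Bojungikgi. The sterol sum over the fatty acid sum was 0.818 to 0.982 in the vehicle libraries, higher than in any of the 27 extract libraries, where it ran from 0.605 (Bojungikgi 500 µg/mL replicate 2) to 0.781 (Banhasasim 500 µg/mL replicate 2). The highest and the lowest ratio of the 30 belonged to libraries that stand apart, and without vehicle replicate 1 the remaining vehicle ratios of 0.818 and 0.839 were still above all 27. The fatty acid sum is weighted toward SCD, at a mean of 2030 CPM over the 30 libraries. SCD read 1544 to 1837 CPM with vehicle, against a median of 2084 CPM in the 27 extract libraries. Its part in the ratio was not tested.

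**Figure D3:**
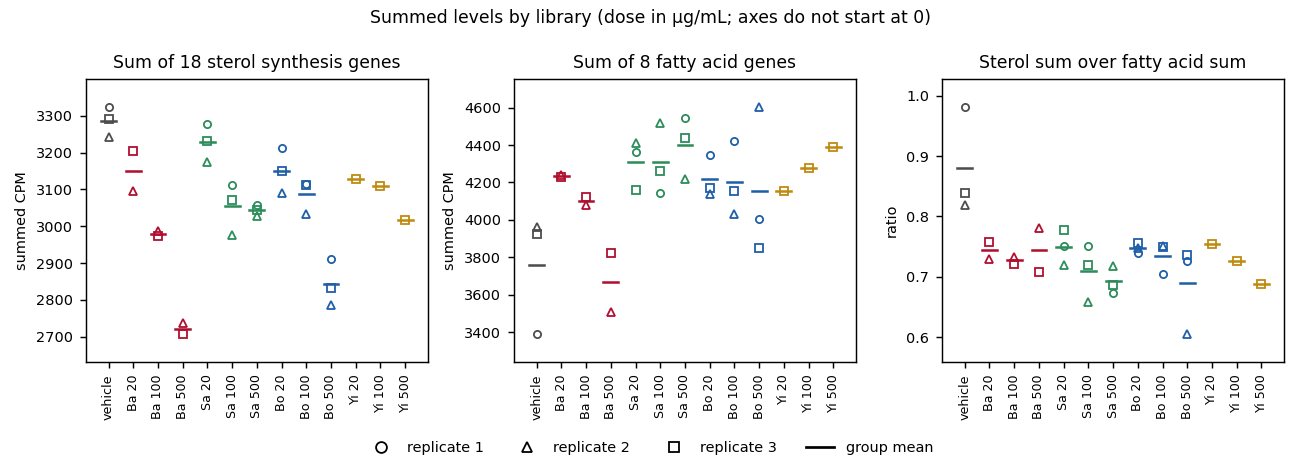
Summed CPM of the 18 sterol enzymes, summed CPM of the 8 fatty acid genes and the ratio of the sums (y axes, not starting at 0) for every library by group (x axis), with a line for the group mean. The sterol sum is lowest at 500 µg/mL of Banhasasim (2706 and 2738 CPM), the mean fatty acid sum is above the vehicle mean of 3756 CPM in every extract group but Banhasasim at 500 µg/mL, and the ratio is highest in the 3 vehicle libraries.

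The middle dose was compared with the doses on either side. Between 100 and 20 µg/mL, 0 genes passed with Banhasasim (background 0.00532% lower), 0 with Sayeok (background 0.00% lower) and 1 with Bojungikgi, which was ACSS2, lower at 100 µg/mL (-0.28 ± 0.04, adjusted p = 0.0151, background 0.0106%). At an unadjusted p under 0.05, edgeR had 3 lower genes with Banhasasim (HMGCS1, INSIG1 and ACSS2), 5 lower and 1 higher with Sayeok and 2 lower with Bojungikgi, and DESeq2 called 0, 0 and 1. The ACSS2 call was lost when any single library of its 2 groups was left out. Between 500 and 100 µg/mL, 3 genes fell with Banhasasim (background 2.06%), 0 with Sayeok (background 1.04%) and 3 with Bojungikgi (background 0.272%). With Banhasasim these were HMGCS1 (-0.38 ± 0.05, adjusted p = 5.84e-05), INSIG1 (-0.29 ± 0.05, adjusted p = 0.000513) and SC5D (-0.23 ± 0.06, adjusted p = 0.0319). With Bojungikgi they were ACSS2 (-0.46 ± 0.05, adjusted p = 2.25e-06), HMGCS1 (-0.23 ± 0.04, adjusted p = 0.00952) and HSD17B7 (-0.33 ± 0.06, adjusted p = 0.00789). With Sayeok, 6 genes were lower and 2 higher at an unadjusted p under 0.05, and DESeq2 called 1. Group means were highest at 20, lower at 100 and lowest at 500 µg/mL for 23 of the 33 genes with Banhasasim, 12 with Sayeok and 21 with Bojungikgi, where 23.9%, 19.7% and 22.5% of all genes had that order. Of the 18 sterol enzymes, 15, 7 and 15 did so, and of the 8 fatty acid genes 5, 4 and 2. These comparisons share groups with those of 500 and 20 µg/mL and are not separate evidence.

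Against vehicle, some genes already differed at 20 µg/mL and others at 500 µg/mL. All comparisons with vehicle use the same 3 vehicle libraries and are given side by side. The vehicle also has its own prefix of the sample codes and is the group with a labelled solvent. An offset shared by all extracts therefore cannot be told apart from a difference in these. At 500 µg/mL, 15 genes were lower and 0 higher with Banhasasim, 10 lower and 3 higher with Sayeok, and 18 lower and 3 higher with Bojungikgi. The background of lower calls was 7.12%, 8.27% and 15.4% of all genes, and that of higher calls was 8.16%, 8.33% and 14.3%. For the 0 higher with Banhasasim, 0 had an unadjusted p under 0.05 and DESeq2 called 0. At 20 µg/mL, 4 were lower and 4 higher with Banhasasim, 6 lower and 5 higher with Sayeok, and 6 lower and 5 higher with Bojungikgi, with lower backgrounds of 6.23%, 10.1% and 9.20% and higher backgrounds of 6.43%, 8.87% and 9.11%. Of the 13275 genes with a mean of at least 1 CPM, fitted alone, 1559, 2078 and 2062 were called higher and 1302, 1843 and 1783 lower. The higher calls of the 33 genes at 20 µg/mL are thus near the share among genes at such levels. At 500 µg/mL that fit called 1409, 1624 and 2908 genes lower and 1591, 1733 and 2761 higher. Without vehicle replicate 1 the total counts of the 33 genes called at 20 µg/mL were 1, 3 and 3, and at 500 µg/mL they were 14, 7 and 18. The Banhasasim count at 20 µg/mL was also 0 without its replicate 2 and 1 without its replicate 3, and the Sayeok count was 6 without its 20 µg/mL replicate 3. The summed level of the 10 colon epithelial markers was 12310.0 CPM with vehicle, 10270.0, 10310.0 and 10390.0 CPM at 20 µg/mL and 10750.0, 10390.0 and 10300.0 CPM at 500 µg/mL (means), and its part in the comparisons with vehicle was not tested. Without the 3 libraries that stand apart the counts were 7, 7 and 10 at 20 and 16, 9 and 15 at 500 µg/mL. When only the groups compared were fitted, they were 0, 4 and 8 at 20 and 7, 4 and 3 at 500 µg/mL.

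**Figure D4:**
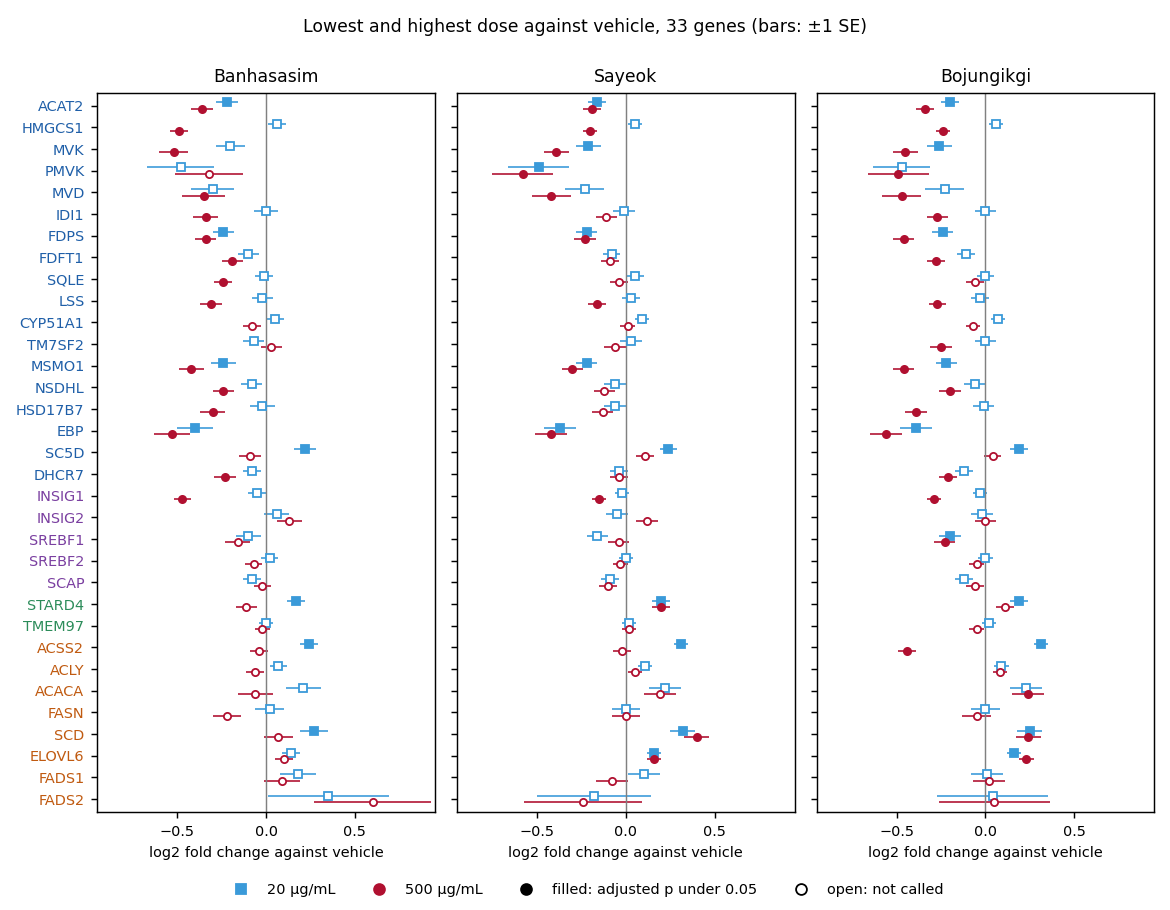
Log2 fold change against vehicle (x axis) at 20 µg/mL (squares) and 500 µg/mL (circles) for the 33 genes in pathway order (y axis) and the 3 replicated extracts, with bars of 1 standard error and filled symbols for an adjusted p under 0.05. ACAT2, FDPS, MSMO1 and EBP are left of 0 at both doses, HMGCS1 and INSIG1 are left of 0 at 500 µg/mL, and SC5D, STARD4, ACSS2 and SCD are right of 0 at 20 µg/mL.

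The enzymes EBP, MSMO1, FDPS and ACAT2 were lower than vehicle at both doses of each extract. EBP, the sterol isomerase, was at -0.40 ± 0.10, -0.37 ± 0.09 and -0.39 ± 0.09 at 20 µg/mL with Banhasasim, Sayeok and Bojungikgi and at -0.53 ± 0.10, -0.42 ± 0.09 and -0.56 ± 0.09 at 500 µg/mL, all called. Its vehicle libraries ran from 96.4 to 137 CPM against 81.75 to 85.7, 83.7 to 88.15 and 82.2 to 86.99 CPM at 20 µg/mL, and the highest of them was replicate 1. MSMO1 was at -0.24 ± 0.07, -0.22 ± 0.06 and -0.22 ± 0.06 at 20 and at -0.42 ± 0.07, -0.30 ± 0.06 and -0.46 ± 0.06 at 500 µg/mL, all called. FDPS was at -0.24 ± 0.06, -0.22 ± 0.06 and -0.24 ± 0.06 and -0.34 ± 0.06, -0.23 ± 0.06 and -0.46 ± 0.06, all called. ACAT2 was at -0.22 ± 0.06, -0.16 ± 0.05 and -0.20 ± 0.05 and -0.36 ± 0.06, -0.19 ± 0.05 and -0.34 ± 0.05, all called. For these 4 genes each vehicle library was above each of the 27 extract libraries, which 3.66% of all genes showed. ELOVL6 was the one gene of the 33 with all vehicle libraries below all 27, which 2.94% of genes showed. Fitted without vehicle replicate 1, the offset at 20 µg/mL stayed called for FDPS, EBP and ACSS2 with Bojungikgi, for SC5D, ACSS2 and SCD with Sayeok and for ACSS2 with Banhasasim.

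HMGCS1, INSIG1, LSS, IDI1, SQLE and HSD17B7 were not called against vehicle at 20 µg/mL in any extract. Each was called lower than vehicle at 500 µg/mL in 1 or more extracts, HSD17B7 with Banhasasim and Bojungikgi. The dose of 100 µg/mL was not compared with vehicle. HMGCS1 was at 0.06 ± 0.05, 0.05 ± 0.04 and 0.06 ± 0.04 at 20 µg/mL and at -0.49 ± 0.05, -0.20 ± 0.04 and -0.24 ± 0.04 at 500 µg/mL, the latter all called. INSIG1 was at -0.05 ± 0.05, -0.02 ± 0.04 and -0.03 ± 0.04 and at -0.47 ± 0.05, -0.15 ± 0.04 and -0.29 ± 0.04, and LSS at -0.02 ± 0.06, 0.03 ± 0.05 and -0.03 ± 0.05 and -0.31 ± 0.06, -0.16 ± 0.05 and -0.27 ± 0.05. The Sayeok call of INSIG1 was lost without vehicle replicate 1, and that of LSS without vehicle replicate 2 or 3 and without Sayeok 500 µg/mL replicate 2 or 3. IDI1 at 500 µg/mL was at -0.34 ± 0.07, -0.11 ± 0.06 and -0.27 ± 0.06, called with Banhasasim and Bojungikgi. SQLE was at -0.24 ± 0.05, -0.04 ± 0.05 and -0.06 ± 0.05, called with Banhasasim.

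SC5D, STARD4, ACSS2 and SCD were higher than vehicle at the lowest dose of each extract. The number of the 33 genes called higher there was near the share among genes with a mean of at least 1 CPM. These offsets are therefore not shown to be particular to these genes. SC5D was 0.22 ± 0.06, 0.24 ± 0.05 and 0.19 ± 0.05 above vehicle at 20 µg/mL, STARD4 0.17 ± 0.05, 0.20 ± 0.05 and 0.19 ± 0.05, ACSS2 0.24 ± 0.05, 0.31 ± 0.04 and 0.31 ± 0.04 and SCD 0.27 ± 0.08, 0.32 ± 0.07 and 0.25 ± 0.07, all called. At 500 µg/mL, SC5D was at -0.09 ± 0.06, 0.11 ± 0.05 and 0.04 ± 0.05, none called, and ACSS2 was at -0.04 ± 0.05, -0.02 ± 0.05 and -0.44 ± 0.05, with the last called lower. SCD, which makes oleate from stearate, was still higher at 500 µg/mL with Sayeok (0.40 ± 0.07, adjusted p = 0.000365) and Bojungikgi (0.24 ± 0.07, adjusted p = 0.0111) and not with Banhasasim (0.07 ± 0.08, adjusted p = 0.603). Its vehicle libraries ran from 1544 to 1837 CPM, and the Bojungikgi call was lost without vehicle replicate 1 and without Bojungikgi 500 µg/mL replicate 2. ELOVL6 was higher at 500 µg/mL with Sayeok (0.16 ± 0.04, adjusted p = 0.0136) and Bojungikgi (0.23 ± 0.04, adjusted p = 0.000527). STARD4 was still higher at 500 µg/mL with Sayeok (0.20 ± 0.05, adjusted p = 0.00735) and ACACA was higher with Bojungikgi (0.24 ± 0.09, adjusted p = 0.0413). The Sayeok calls of ELOVL6 and STARD4 and the Bojungikgi call of ACACA were each lost without vehicle replicate 1. That of ELOVL6 was also lost without Sayeok 500 µg/mL replicate 2, and that of ACACA without Bojungikgi 500 µg/mL replicate 2. SREBF1 was lower than vehicle with Bojungikgi at 20 (-0.20 ± 0.06, adjusted p = 0.0219) and 500 µg/mL (-0.23 ± 0.06, adjusted p = 0.00618), and the call at 20 µg/mL was lost without vehicle replicate 1 or 2 and without Bojungikgi 20 µg/mL replicate 2 or 3. Over all 21 tests, 9 genes were never called: CYP51A1, INSIG2, SREBF2, SCAP, TMEM97, ACLY, FASN, FADS1 and FADS2. For FADS2 the missing calls rest on few counts.

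The extracts were then compared with each other at 500 µg/mL. The 3 comparisons share libraries with each other. Banhasasim also has a different prefix of the sample codes from Sayeok and Bojungikgi, so extract and prefix cannot be told apart where it is compared. Against Sayeok, 6 genes were lower with Banhasasim (background 1.60%) and 0 higher (1 at an unadjusted p under 0.05, 0 by DESeq2). They were INSIG1 (-0.31 ± 0.05, adjusted p = 5.93e-05), HMGCS1 (-0.29 ± 0.05, adjusted p = 0.000627), STARD4 (-0.31 ± 0.06, adjusted p = 0.000845), SCD (-0.33 ± 0.08, adjusted p = 0.0109), SQLE (-0.20 ± 0.05, adjusted p = 0.0218) and SC5D (-0.21 ± 0.06, adjusted p = 0.0349). Against Bojungikgi, 5 were lower with Banhasasim (background 5.90%) and 2 higher (background 6.29%). HMGCS1 (-0.24 ± 0.05, adjusted p = 0.00214), INSIG1 (-0.18 ± 0.05, adjusted p = 0.0114), STARD4 (-0.22 ± 0.06, adjusted p = 0.0117), SQLE (-0.18 ± 0.05, adjusted p = 0.0226) and ACACA (-0.31 ± 0.10, adjusted p = 0.0447) were lower. ACSS2 (0.39 ± 0.05, adjusted p = 8.98e-06) and TM7SF2 (0.28 ± 0.06, adjusted p = 0.00549) were higher with Banhasasim. Sayeok and Bojungikgi differed in 1 gene, ACSS2, higher with Sayeok (0.42 ± 0.05, adjusted p = 1.62e-05, background 0.160%). Another 12 genes were higher with Sayeok at an unadjusted p under 0.05, so a missing call does not show that the extracts acted alike. Without Banhasasim 500 µg/mL replicate 2 the counts were 3 against Sayeok and 1 against Bojungikgi, and without the 3 libraries that stand apart the 3 counts were 10, 5 and 2.

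A difference at 1 dose can include an offset shared by all doses, so the change from 20 to 500 µg/mL was also compared between extracts. The change of HMGCS1 was more negative with Banhasasim than with Sayeok, by -0.29 ± 0.07 (adjusted p = 0.0397), and so was that of INSIG1, by -0.28 ± 0.06 (adjusted p = 0.0242), where 0.298% of all genes were called in that direction. Against Bojungikgi the same 2 differences were -0.25 ± 0.07 (adjusted p = 0.0696) and -0.16 ± 0.06 (adjusted p = 0.239) and did not pass. The change of ACSS2 was more negative with Bojungikgi than with Banhasasim, by 0.45 ± 0.07 (adjusted p = 0.000364), and than with Sayeok, by 0.41 ± 0.06 (adjusted p = 0.00604). TM7SF2 went the same way between Banhasasim and Bojungikgi, by 0.36 ± 0.09 (adjusted p = 0.0365). Of all genes, 1.31% and 0.0213% were called in that direction in the 2 comparisons. The HMGCS1 difference lost its call without each of the libraries behind it in turn except Sayeok 20 µg/mL replicates 1 and 3. That of INSIG1 lost it without Banhasasim 500 µg/mL replicate 2, Banhasasim 20 µg/mL replicate 3, Sayeok 500 µg/mL replicate 2 or 3, or Sayeok 20 µg/mL replicate 3. That of TM7SF2 lost it without Banhasasim 500 µg/mL replicate 2, either Banhasasim 20 µg/mL library, Bojungikgi 20 µg/mL replicate 1 or Bojungikgi 500 µg/mL replicate 3. The ACSS2 differences kept theirs without each library in turn, and that between Sayeok and Bojungikgi lost it when only the groups compared were fitted (adjusted p = 0.176).

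Yijung had 1 library per dose, so its values have no spread and no test. Its 500 µg/mL library was below the range of the 8 libraries of the other extracts at 20 µg/mL for 16 of the 33 genes and above it for 3, where 15.65% and 16.01% of all genes were below and above. HMGCS1 read 264, 252 and 233 CPM at 20, 100 and 500 µg/mL, against 250.1 to 276 in the 8 libraries. INSIG1 read 183, 168 and 162 CPM (range 176 to 190.4), and LSS read 124, 116 and 107 CPM (range 115 to 128.5), so all 3 stepped down with dose. ACSS2 moved most, at 26.5, 25.2 and 18.1 CPM (range 26.04 to 28.4), and its 500 µg/mL value lay nearer to Bojungikgi (16.7, 16.6 and 16.8 CPM) than to Sayeok or Banhasasim. SC5D read 140.0, 133 and 128 CPM, IDI1 176, 169 and 161 CPM and MVK 44.7, 42.2 and 40.96 CPM. HSD17B7 read 19.9, 19.45 and 17.1 CPM and MSMO1 101, 91.5 and 90.1 CPM. Both were lower at 500 than at 20 µg/mL. FDPS read 179, 165 and 164 CPM, SQLE 809.7, 828 and 814 CPM and STARD4 73.8, 76.3 and 73.4 CPM, where SQLE and STARD4 showed no step down. The 3 genes above the range were SREBF1 (143, 148 and 156 CPM), ACACA (600.2, 618 and 635 CPM) and ELOVL6 (84.3, 86.4 and 89.1 CPM). The median log2 ratio of 500 over 20 µg/mL was -0.115 for the sterol enzymes and 0.05 for the fatty acid genes, and 0.008 over 13274 genes with a mean of at least 1 CPM.

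Other genes of the pathway were taken from lists that do not overlap the 33 and were compared between 500 and 20 µg/mL. Among all genes tested, 4.00%, 2.03% and 1.16% were called lower with Banhasasim, Sayeok and Bojungikgi, and 3.82%, 1.14% and 0.602% higher. None of 14 genes of SREBP maturation and degradation (the site proteases MBTPS1 and MBTPS2, the ligases RNF139 and RNF145, and others) and none of 12 genes of the isoprenoid branch (prenyl transferases, dolichol and ubiquinone enzymes) was called by edgeR's quasi-likelihood test in any extract. At an unadjusted p under 0.05, the maturation list had 3 higher and 1 lower with Banhasasim, 1 higher with Sayeok and 1 higher with Bojungikgi, and DESeq2 called 1 in each. The isoprenoid list had 1 higher with Banhasasim, none with Sayeok and 3 higher and 1 lower with Bojungikgi, and DESeq2 called 0. Their median log2 changes lay between -0.045 and 0.055. Of 10 genes of sterol storage and trafficking, 2 fell with Banhasasim: GRAMD1B, a carrier of plasma membrane cholesterol (-0.39 ± 0.05, adjusted p = 2.19e-05), and SOAT1, which esterifies cholesterol (-0.34 ± 0.10, adjusted p = 0.0412). DESeq2 called 1 lower gene of this list with Banhasasim. None was called with Sayeok or Bojungikgi (2 lower, and 3 lower and 1 higher, at an unadjusted p under 0.05, with 1 called by DESeq2 in each). Of 13 other described SREBP targets that could be tested, ME1, the cytosolic malic enzyme that yields NADPH, rose in each extract (0.51 ± 0.05, 0.26 ± 0.04 and 0.19 ± 0.04), while LPIN1, a phosphatidate phosphatase, fell with Banhasasim (-0.29 ± 0.07) and Bojungikgi (-0.30 ± 0.05) and ALDOC fell with Bojungikgi (-0.29 ± 0.07). ME1 is also a described target of NRF2. Of 13 further fatty acid enzymes, ACSL1 fell (-0.27 ± 0.05) and FADS3 rose (0.36 ± 0.10) with Banhasasim, and ACACB fell with Sayeok (-0.44 ± 0.10). None was called with Bojungikgi, where 2 were lower at an unadjusted p under 0.05 and DESeq2 called 1.

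LXR receptors are activated by oxysterols and induce cholesterol export. A list of LXR targets also held the genes of the receptors themselves, and 6 of its genes could be tested. Of these, 2 rose and 1 fell with Banhasasim, 3 rose with Sayeok and 2 rose with Bojungikgi. Among all genes tested, 3.82%, 1.14% and 0.602% were called higher in these comparisons, and 4.00% were called lower with Banhasasim. ABCG1, a cholesterol exporter, read 4.725 and 4.74 CPM at 20 and 9.84 and 10.9 at 500 µg/mL of Banhasasim. It read 4.265, 5.035 and 4.36 and 7.54, 8.265 and 9 CPM with Sayeok and 4.57, 4.52 and 4.71 and 5.795, 6.25 and 5.78 CPM with Bojungikgi, with no overlap in any. It rose, with log2 changes of 1.13 ± 0.10 (adjusted p = 5.02e-09), 0.85 ± 0.08 (adjusted p = 2.52e-07) and 0.37 ± 0.08 (adjusted p = 0.0128). NR1H3, which encodes LXR alpha, rose with Banhasasim (0.45 ± 0.08) and Sayeok (0.24 ± 0.06). MYLIP, a ubiquitin ligase for lipoprotein receptors, rose with Sayeok (0.32 ± 0.05) and Bojungikgi (0.22 ± 0.05). ABCA1, another exporter, went the other way with Banhasasim, from 6.87 and 6.63 CPM at 20 to 4.18 and 4.91 at 500 µg/mL (-0.57 ± 0.11, adjusted p = 0.0012), where the vehicle libraries read 4.08, 4.045 and 5.235 CPM. With Banhasasim the list thus held calls in both directions.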

How the data were processed

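RNA from HT29 cells was sequenced as 100-base read pairs after a directional library kit, per the labels' protocols. The authors' deposited table holds expected counts per Ensembl gene, 1 column per library. FastQC 0.11.9, Trim Galore 0.6.5, STAR 2.7.3a, RSEM 1.3.3 and the build GRCh38 are named in the submitters' processing notes. For the annotation release and the strand setting, the value is not given in the sources used here. The table has 60675 genes and 270 columns of values, of which 30 match these samples by title and 240 were not used. Symbols were matched for 56558 IDs (93.21%).

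Expected counts were rounded to whole numbers (25.48% of values above 0 were not whole). Genes with low counts were removed with edgeR's filterByExpr at a minimum count of 10, which left 18783 genes. The edgeR 4.0.16 quasi-likelihood test (R 4.3.3, TMM, robust) was fitted with 1 mean per group over all 30 libraries, so that all groups share 1 estimate of spread with 17 residual degrees of freedom. The biological coefficient of variation was 6.38%. Yijung, with 1 library per dose, entered no test. P-values were adjusted by the Benjamini-Hochberg method over all genes tested in each of 21 comparisons, with a threshold of 0.05. The standard error is the size of the log2 fold change over the root of the F statistic. The script was tested on simulated data.

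The members and the gene lists were chosen with earlier results of these data known. Values of every library are given for members called between 500 and 20 µg/mL, up to 12 by the smallest p with Banhasasim. Genes of other lists are named where called in that comparison, up to 4 per list. Alternatives were other scaling (RLE, plain totals, mitochondrial genes left out), other filters, DESeq2 1.42.0, smaller fits, a replicate block, each library left out, and, added after seeing the data, the 3 libraries standing apart left out. Promoter windows came from RefSeq.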

Additional observations from a re-analysis of the deposited data

Results flagged for a closer look

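The change from 20 to 500 µg/mL differed between extracts for 4 of the 33 genes, by the test of the difference itself in edgeR's quasi-likelihood fit with Benjamini-Hochberg adjustment. Of all genes tested, 0.298% were called more negative with Banhasasim than with Sayeok, and 1.31% and 0.0213% were called less negative with Banhasasim and with Sayeok than with Bojungikgi. HMGCS1 changed more with Banhasasim than with Sayeok, by -0.29 on the log2 scale, and INSIG1 by -0.28. TM7SF2 differed by 0.36 between Banhasasim and Bojungikgi, with the lower change in Bojungikgi. ACSS2 differed by 0.45 between Banhasasim and Bojungikgi and by 0.41 between Sayeok and Bojungikgi, in the same direction. The 3 comparisons use each extract's libraries more than once. The calls of HMGCS1, INSIG1 and TM7SF2 were lost in 10, 7 and 7 of 20 alternatives. That of ACSS2 was lost in 0 of 20 between Banhasasim and Bojungikgi and in 1 of 22 between Sayeok and Bojungikgi.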

How the results depend on the processing

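The 127 called log2 changes of single genes kept their direction under each alternative run, and the number called varied. Scaling by total counts only moved the median log2 change of all genes with Banhasasim from 0.005 to -0.129 at 500 against 20 µg/mL, and the share of higher calls among all called genes from 48.8% to 10.4%. There the counts of the 33 genes were 23 at 500 against 20 µg/mL, 19 at 500 against 100, 20 against Sayeok and 12 against Bojungikgi at 500, and 4 for the difference of the changes between Banhasasim and Bojungikgi. For Sayeok at 500 against 100 µg/mL the count was 2. With no filter on low counts, the counts at 500 against 100 µg/mL were 5 with Banhasasim, 1 with Sayeok and 5 with Bojungikgi, that between Sayeok and Bojungikgi at 500 was 4, and that for the difference between Banhasasim and Sayeok was 0. DESeq2 gave 5, 1 and 5 at 500 against 100 µg/mL and 4 between Sayeok and Bojungikgi. A mean of at least 1 CPM gave 2 for Sayeok at 500 against 100 µg/mL.

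Fitting only the groups compared, with fewer libraries behind the spread, gave 2 for Bojungikgi at 500 against 20 µg/mL, 1 for Sayeok and 0 for Bojungikgi at 500 against 100, and 7, 4 and 3 at 500 µg/mL against vehicle. It gave 0 for Banhasasim and 4 for Sayeok at 20 µg/mL against vehicle, 0 for Banhasasim and 0 for Sayeok against Bojungikgi at 500, and 0, 1 and 0 for the differences of the changes. Leaving out the 3 libraries that stand apart, chosen after seeing the data, gave 16 and 5 for Banhasasim and Sayeok at 500 against 20 µg/mL, 7 for Banhasasim at 500 against 100, 7 for Sayeok at 20 µg/mL against vehicle, 10 between Banhasasim and Sayeok and 2 between Sayeok and Bojungikgi at 500, and 4 for the difference between Banhasasim and Sayeok. The cause of these shifts was not tested.

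With each library left out in turn, the counts with Banhasasim, Sayeok and Bojungikgi ran from 4 to 9, 2 to 3 and 4 to 10 at 500 against 20 µg/mL, and from 2 to 4, 0 to 1 and 2 to 4 at 500 against 100. They were 0 in each at 100 against 20. They ran from 12 to 15, 7 to 14 and 17 to 22 at 500 against vehicle, and from 0 to 12, 3 to 12 and 3 to 13 at 20 against vehicle. At 500 µg/mL they ran from 3 to 6 between Banhasasim and Sayeok, 1 to 7 between Banhasasim and Bojungikgi and 1 to 2 between Sayeok and Bojungikgi. The differences of the changes ran from 0 to 2, 1 to 2 and 1 to 1. Where this left 1 Banhasasim library, it was assumed to vary like the other groups.

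Replicate numbers in the titles did not pair the samples by their deviations from group means (correlations of 0.003 with Banhasasim, -0.032 to 0.118 with Sayeok and -0.149 to -0.024 with Bojungikgi at 500 and 20 µg/mL). With the replicate number as a block the counts at 500 against 20 µg/mL were 10, 3 and 9, and for Sayeok at 500 against 100 µg/mL the count was 1. Of the 127 called changes, 126 stayed called under the block. Of 120 mean levels, 30 moved by more than 1 SD under plain totals. Depth limits FADS2, at 0.109 to 0.465 CPM, where 3 counts are up to 0.0827 CPM.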
